A study of Rattus norvegicus with 4 samples.

Results

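The Cyp2 family of cytochrome P450 was followed in rat liver 24 h after α-naphthylisothiocyanate (ANIT), a toxicant of the bile ducts that produces cholestasis in rodents. Its members are the spotted cDNA features annotated with a single gene symbol that begins with Cyp2 and a further letter. Of 1936 features on the array 34 met this description, and they stood for 15 genes in 9 subfamilies. The ANIT group were male Sprague-Dawley rats of 250 to 300 g given 75 mg/kg intraperitoneally in olive oil (7.5 mg/mL), and the olive oil group were like rats given the same volume of the vehicle. Both groups were fed rat chow freely and had the right lateral liver lobe taken 24 h later. Age is not given in the labels. RNA of the 3 rats of a group was mixed, so each condition was a single RNA pool, and variation between animals cannot be seen in these data.

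Both pools were co-hybridised on 4 arrays. Arrays 1 and 3 carried ANIT cDNA labelled with Cy5, and on arrays 2 and 4 the dyes were exchanged, so that ANIT cDNA carried Cy3. Values are log2 ratios of the ANIT pool over the olive oil pool, given as mean ± SD over n = 4 hybridisations of the same pools. The SD therefore describes hybridisation and dye, not animals, and no p-value is given for the treatment. The direction is likely rather than stated. It rests on the labels naming ANIT as the second channel of every array, and with the opposite direction every sign below would be turned. Were the ratio Cy5 over Cy3 on every array, only the signs of arrays 2 and 4 would be turned. Reading the values as log2 is likewise an assumption. Between arrays of opposite dye orientation the Pearson correlation was -0.0095 to 0.051 over all features and 0.20 to 0.32 over Cyp2 features. The ratios carry no spot intensity, so neither the level of a transcript nor its detection could be assessed, and a smaller number of hepatocytes cannot be told apart from less RNA per hepatocyte.

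Cytochrome P450 enzymes of the Cyp2 family are haem proteins of the endoplasmic reticulum that oxidise drugs, solvents, steroids and fatty acids, with electrons passed on by the P450 reductase. Hepatocytes are the main site of many of them, and several are kept to cells around the central vein. Their transcription in liver depends on hepatocyte nuclear factors, on the xenobiotic receptors CAR and PXR and, in rats, on the sex-dependent rhythm of growth hormone. Rodent Cyp2 genes have multiplied into clusters of close copies, and a spotted cDNA can hybridise with more than its own transcript. The rat RefSeq assembly GRCr8 lists 11 protein-coding Cyp2c genes, 8 Cyp2b, 5 Cyp2d and 4 Cyp2j genes, so values within these subfamilies are uncertain as to which copy they report. Rat Cyp2c11, the main male form, and the phenobarbital-inducible Cyp2b1 and Cyp2b2 were not analysed here.

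Lower ratios in the ANIT pool came from Cyp2j3, an epoxygenase of arachidonic acid in the rat, and from part of the features of Cyp2e1, the ethanol- and solvent-oxidising P450 of cells around the central vein. Of the 34 features, 4 passed the 2-fold rule, a mean log2 ratio of at least 1 in size with the same sign on all 4 arrays. All 4 were lower, at 2.07-fold to 2.37-fold, and none was higher. Over all 1936 features the rule called 3.05% lower and 0.775% higher, against 11.8% lower and 0% higher among the Cyp2 features. The order depended on the dye: with ANIT in Cy5 alone 23.5% of Cyp2 features and 34.5% of all features were lower. With ANIT in Cy3 alone the shares were 14.7% and 2.84%. The 4 features past the rule on all arrays are 2 genes. With features averaged per gene, 1 of 15 Cyp2 genes, Cyp2j3, was lower (6.67%, against 3.55% of all 958 genes). At the other end stood Cyp2u1 and Cyp2c22, with all their values above 0 and short of 2-fold.

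The promoters of the genes at both ends are shown because their ratios set the limits of the family: Cyp2e1 and Cyp2j3 hold the features past the rule, and Cyp2c22 and Cyp2u1 are the highest genes. Each runs 5′ to 3′ from 250 bases before to 50 bases after the RefSeq gene start in GRCr8, at chr1:205269717-205270016 (plus strand) for Cyp2e1, chr5:116360450-116360749 (minus strand) for Cyp2j3, chr1:248980718-248981017 (minus strand) for Cyp2c22 and chr2:222540940-222541239 (minus strand) for Cyp2u1. Capitals mark, on either strand, the letters TATAAA of a promoter's TATA box, the letters CCAAT bound by nuclear factor Y, and the letters AGGTCA of a nuclear receptor half-site, and no matches overlapped.
Cyp2e1: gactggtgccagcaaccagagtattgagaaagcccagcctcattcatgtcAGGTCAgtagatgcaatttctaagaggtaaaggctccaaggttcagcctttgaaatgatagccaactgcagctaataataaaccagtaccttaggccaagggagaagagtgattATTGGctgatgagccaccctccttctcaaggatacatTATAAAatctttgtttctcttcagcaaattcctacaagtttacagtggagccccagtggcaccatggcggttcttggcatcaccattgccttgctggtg
Cyp2j3: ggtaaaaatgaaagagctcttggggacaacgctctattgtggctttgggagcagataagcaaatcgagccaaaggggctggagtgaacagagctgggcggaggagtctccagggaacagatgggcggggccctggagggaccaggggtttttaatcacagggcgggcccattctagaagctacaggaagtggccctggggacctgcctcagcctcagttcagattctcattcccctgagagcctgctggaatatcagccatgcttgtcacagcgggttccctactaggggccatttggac
Cyp2c22: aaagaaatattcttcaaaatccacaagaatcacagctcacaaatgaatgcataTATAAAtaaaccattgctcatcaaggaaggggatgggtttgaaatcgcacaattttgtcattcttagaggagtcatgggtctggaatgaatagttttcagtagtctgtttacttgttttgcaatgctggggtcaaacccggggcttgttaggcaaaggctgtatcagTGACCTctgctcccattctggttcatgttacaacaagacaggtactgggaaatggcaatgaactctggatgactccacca
Cyp2u1: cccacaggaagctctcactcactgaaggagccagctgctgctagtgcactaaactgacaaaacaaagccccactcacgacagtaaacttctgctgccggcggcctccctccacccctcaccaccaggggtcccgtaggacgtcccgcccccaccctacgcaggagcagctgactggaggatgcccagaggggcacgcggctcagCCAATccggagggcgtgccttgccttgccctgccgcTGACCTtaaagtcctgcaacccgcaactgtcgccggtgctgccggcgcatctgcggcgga
The Cyp2e1 window held all 3 motifs, with TATAAA beginning 49 bases, CCAAT (minus strand) 86 bases and AGGTCA 200 bases before the gene start. The Cyp2j3 window held none. Cyp2c22 had TATAAA 197 bases and AGGTCA (minus strand) 30 bases before the start, and Cyp2u1 had CCAAT 46 bases and AGGTCA (minus strand) 10 bases before it. Cyp2e1 and Cyp2j3 had none of the 3 motifs in common. Among 33469 rat promoters of this length, 14.2% held TATAAA, 37.5% CCAAT and 16.2% AGGTCA, and of the 14 Cyp2 promoters matched, 4 held TATAAA, 5 CCAAT and 5 AGGTCA.

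The Cyp2j subfamily had the lowest median of the subfamilies with 3 or more features, -1.15 over 3 features. Cyp2j3 was represented by 2 features that behaved alike. Feature 1009 read -1.25, -1.15, -1.29 and -1.07 on arrays 1 to 4, or 2.28-fold lower (-1.19 ± 0.10). Feature 426 read -1.20, -1.02, -1.34 and -1.03, or 2.22-fold lower (-1.15 ± 0.15). All 8 readings of Cyp2j3 lay below -1, in both dye orientations. Cyp2j10, a further gene of the same cluster on chromosome 5, read -0.79, -0.78, -0.82 and -0.71 (-0.78 ± 0.05). Its 4 values lay closer together than those of any Cyp2 feature but Cyp2u1, and none reached -1 or the range of Cyp2j3. Centring the arrays on their medians raised every mean by 0.17, after which the Cyp2j3 features stood at -1.03 and -0.98, the second just short of 2-fold.

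**Figure D1:**
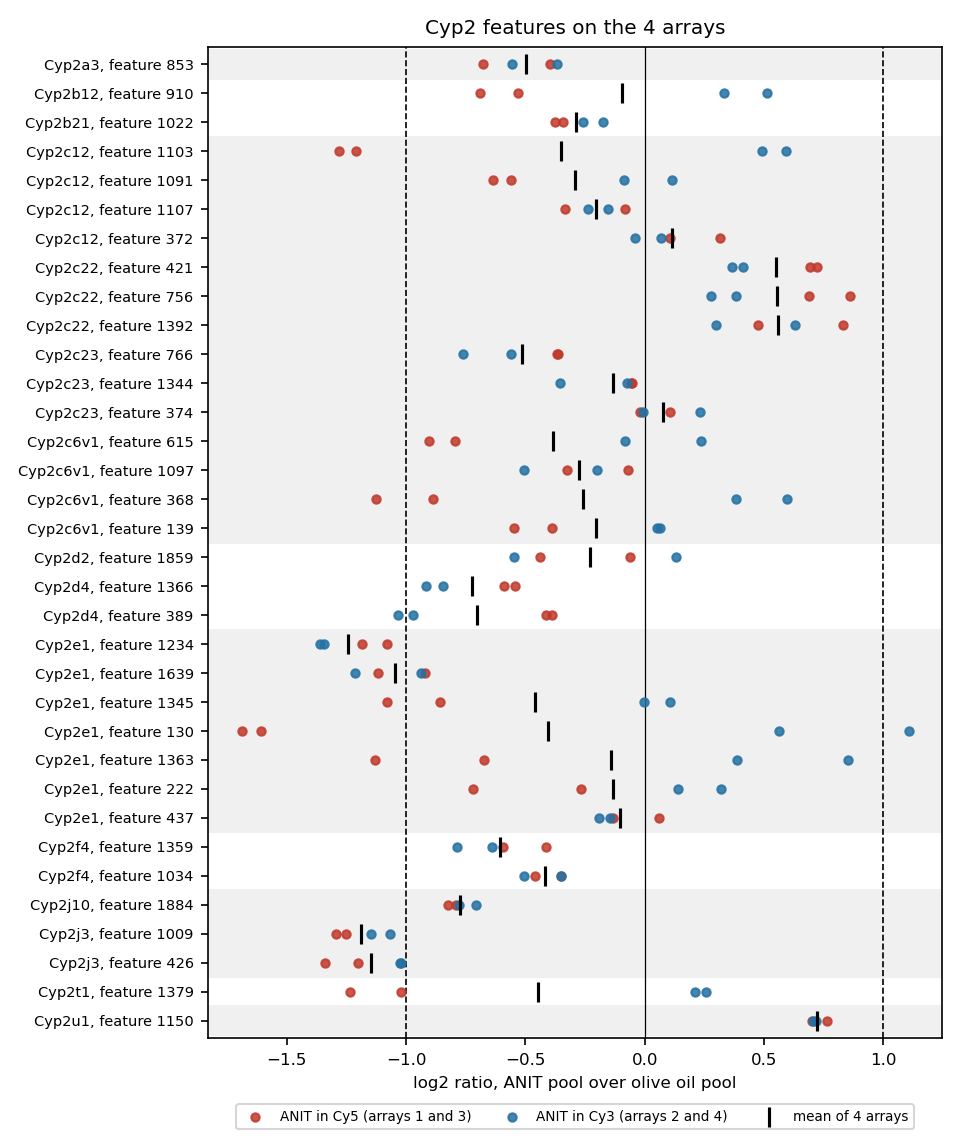
Log2 ratio of the ANIT pool over the olive oil pool (horizontal axis) for each of the 34 Cyp2 features (rows, shaded by subfamily), with points for arrays with ANIT in Cy5 and in Cy3 and a bar at the mean. Cyp2j3 and 2 Cyp2e1 features have means beyond the dashed 2-fold line at -1, no mean lies beyond 1, and several features have their red and blue points on opposite sides of 0.

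Cyp2e1 had 7 features, and they did not give a common answer. Feature 1234 was the lowest of the family, with -1.08, -1.35, -1.18 and -1.36 on arrays 1 to 4, or 2.37-fold lower (-1.24 ± 0.14). Feature 1639 read -0.92, -0.94, -1.12 and -1.22, or 2.07-fold lower (-1.05 ± 0.14). Both were below -0.9 on every array, although feature 1639 lies at the limit of the rule: it no longer passed without array 3, and its mean was -0.98 without array 4 and -0.88 with centred arrays. At the other extreme, feature 437 read 0.06, -0.15, -0.13 and -0.19 (-0.10 ± 0.11), near 0 in both orientations.

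The other 4 Cyp2e1 features followed the dye. Feature 130 read -1.61 and -1.69 with ANIT in Cy5, against 0.56 and 1.11 with ANIT in Cy3, for a mean of -0.41 ± 1.45. Feature 1363 read -1.13 and -0.67 with ANIT in Cy5, but 0.38 and 0.85 with ANIT in Cy3 (-0.14 ± 0.92). Feature 222 read -0.72 and -0.27 with ANIT in Cy5, but 0.32 and 0.14 with ANIT in Cy3 (-0.13 ± 0.46). Feature 1345 read -1.08 and -0.86 with ANIT in Cy5, against -0.0022 and 0.11 with ANIT in Cy3 (-0.46 ± 0.60). In these 4 features the orientations did not overlap and the mean over arrays lay inside the gap between them. The median of all features on the array moved the same way, at -0.68 and -0.64 with ANIT in Cy5, against 0.31 and 0.35 with ANIT in Cy3. The part of this array-wide dye difference in the Cyp2e1 readings was not tested.

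**Figure D2:**
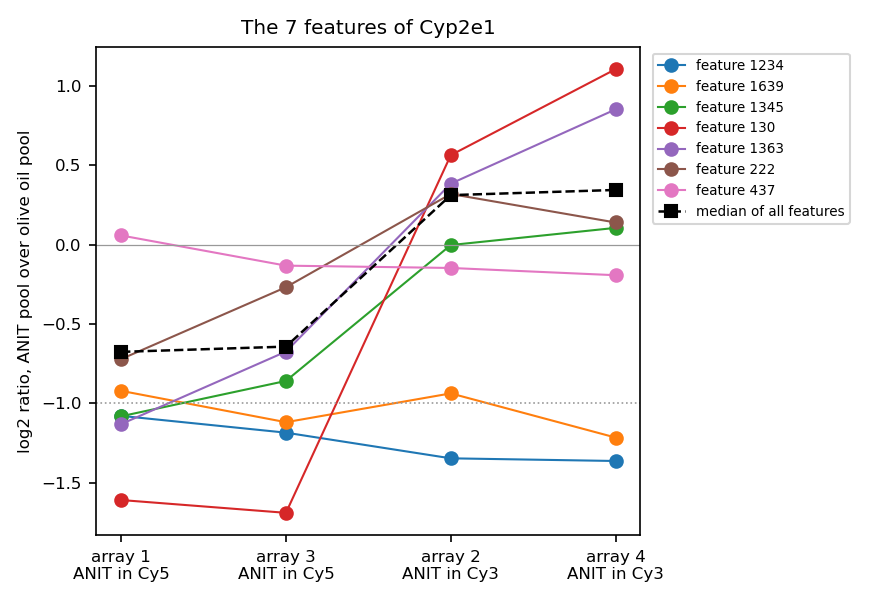
Log2 ratio (vertical axis) of the 7 Cyp2e1 features on the 4 arrays, ordered by dye orientation, with the median of all 1936 features as a dashed black line. Features 1234 and 1639 stay between -1.36 and -0.92 and feature 437 stays near 0, while features 130, 1363, 222 and 1345 read higher with ANIT in Cy3, as the array median does.

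Features with the same sequence accession can be set side by side, although whether their spotted cDNAs were identical could not be assessed. In 21 pairs of named features both carried the same sequence accession, and the means of a pair differed by 0.19 in the median. The Cyp2e1 pair of features 1639 and 1345 differed by 0.59, the largest difference of the 21 pairs. Feature 1639 had nearly no dye term (0.028, where the dye term is the average of the readings with ANIT in Cy5 minus that with ANIT in Cy3, divided by 2), and feature 1345 had -0.51. The other Cyp2e1 pair, features 222 and 437, agreed in the mean within 0.029 but differed in dye term (-0.36 and 0.066). The pair of Cyp2f4 features differed by 0.19. For Cyp2e1 the spread between features was thus larger than the hybridisation SD of its most stable features, and 75 of the 79 genes with 3 or more features had a smaller range of feature means than its 1.14. Ranges tend to widen with the number of features, which was 7 for Cyp2e1 and from 3 up to 8 among the 79 genes. Which feature reports Cyp2e1 mRNA best was not tested.

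The Cyp2c subfamily, with 14 features of 4 genes, had a median of -0.20 and no feature past 2-fold or 1.5-fold. Cyp2c22 stood apart within it. RefSeq lists Cyp2c70 among its synonyms, and in the mouse the enzyme of that name makes muricholic acids, the hydrophilic bile acids of rodents. Feature 421 of Cyp2c22 read 0.69, 0.41, 0.72 and 0.37 (0.55 ± 0.19) on arrays 1 to 4, feature 756 read 0.86, 0.28, 0.69 and 0.38 (0.55 ± 0.27), and feature 1392 read 0.83, 0.30, 0.47 and 0.63 (0.56 ± 0.23). All 12 readings were above 0, the folds were 1.46, 1.47 and 1.47, and centring raised the means to between 0.71 and 0.72. The 3 features agreed within 0.0089 in the mean, the smallest range among the 79 genes with 3 or more features, while within each feature the arrays spread over 0.36 to 0.58.

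Cyp2c12, a steroid sulphate hydroxylase that is female-specific in adult rat liver, had 4 features between -0.35 and 0.11, in animals that were all male. Feature 1103 read -1.21 and -1.28 with ANIT in Cy5, against 0.49 and 0.59 with ANIT in Cy3 (-0.35 ± 1.03), so its mean is again the balance of opposite signs. Feature 1091 read -0.64 and -0.56 with ANIT in Cy5, against -0.086 and 0.11 with ANIT in Cy3 (-0.29 ± 0.36). The means of the other 2 features, 1107 (-0.20 ± 0.11) and 372 (0.11 ± 0.15), lay on opposite sides of 0. Feature 372 read higher with ANIT in Cy5 (0.32 and 0.11) than with ANIT in Cy3 (-0.040 and 0.067).

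Cyp2c6v1, a constitutive and phenobarbital-responsive form of rat liver, had 4 features from -0.39 to -0.21. All 4 means were below 0, but only feature 1097 was below 0 on every array (-0.069, -0.51, -0.33 and -0.20, mean -0.28 ± 0.19). Features 615, 368 and 139 were lower with ANIT in Cy5 (-0.85, -1.01 and -0.47) than with ANIT in Cy3 (0.076, 0.49 and 0.057). Cyp2c23, an arachidonic acid epoxygenase of rat kidney and liver, had 3 features at -0.51 ± 0.19, -0.14 ± 0.15 and 0.077 ± 0.12. Feature 766, the lowest of the Cyp2c features, was below 0 on all arrays (-0.36, -0.76, -0.37 and -0.56), whereas feature 374 read 0.10, -0.0090, -0.022 and 0.23. The Cyp2c23 features differed in the mean by 0.59, more than their own SDs.

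Cyp2d4, a rat Cyp2d form also found in brain, had 2 features with like means. Feature 1366 read -0.59, -0.92, -0.54 and -0.85 (-0.73 ± 0.18) and feature 389 read -0.41, -0.97, -0.39 and -1.03 (-0.70 ± 0.35), or 1.65-fold and 1.63-fold lower. Both were below 0 on all arrays and passed a 1.5-fold rule but not the 2-fold rule. Here the orientations ran against the array-wide pattern, with lower readings when ANIT was in Cy3. Cyp2d2, which hydroxylates debrisoquine in the rat, read -0.063, -0.55, -0.44 and 0.13 (-0.23 ± 0.32). Its repeat arrays with ANIT in Cy3 differed by 0.68, the largest such difference in the family, where the median of the larger repeat difference was 0.20 for Cyp2 features and 0.20 for all features.

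Among the smaller subfamilies Cyp2u1, which hydroxylates long-chain fatty acids in humans, was the highest Cyp2 feature. It read 0.76, 0.70, 0.70 and 0.72, or 1.65-fold higher (0.72 ± 0.029), with the smallest SD of the family and 0.89 after centring. Its mean ranked 32 from the top among the 1936 features. It alone passed the 1.5-fold rule upward, which called 2.94% of Cyp2 features and 2.48% of all features.

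Cyp2f4, whose mouse counterpart activates naphthalene in lung, had its 2 features at -0.61 ± 0.15 (1.52-fold lower) and -0.42 ± 0.078, with all 8 readings below 0. Cyp2a3, a rat form known from lung and nasal tissue, read -0.68, -0.37, -0.40 and -0.56 (-0.50 ± 0.14). Cyp2b21 was at -0.29 ± 0.091 with all arrays below 0. All readings of these 3 genes were below 0. The median of all features was -0.25 for the means over arrays, but 0.31 and 0.35 on arrays 2 and 4. Of all features, 17.6% were below 0 on every array. Cyp2b12, an epoxygenase of rat skin glands, and Cyp2t1 followed the dye, with means of -0.61 and 0.42 for Cyp2b12 and -1.13 and 0.23 for Cyp2t1 with ANIT in Cy5 and in Cy3. Cyp2a3, Cyp2b12, Cyp2b21, Cyp2f4 and Cyp2t1 share a cluster on chromosome 1, and their 6 features lay between -0.61 and -0.093. Under the 1.5-fold rule 8 Cyp2 features were lower (23.5%, against 6.92% of all features): those of Cyp2j3, Cyp2j10 and Cyp2d4, the 2 low Cyp2e1 features and Cyp2f4 feature 1359.

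**Figure D3:**
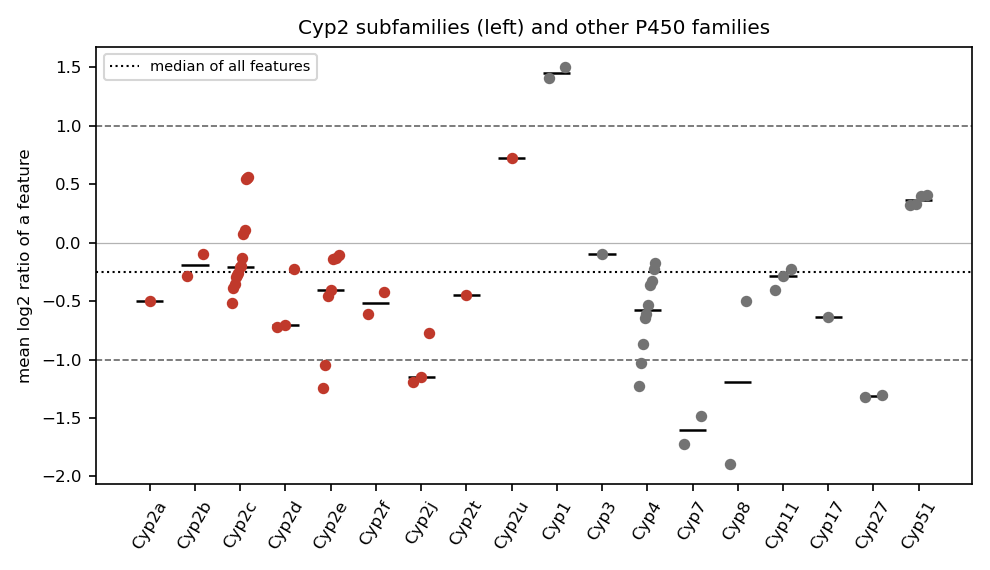
Mean log2 ratio of each feature (vertical axis) for the 9 Cyp2 subfamilies (red) and the other P450 families on the array (grey), with bars at the medians, dashed lines at 2-fold and a dotted line at the median of all features. The Cyp2j subfamily has the lowest median of the Cyp2 subfamilies and the Cyp2u1 feature is the highest, while Cyp7, Cyp8 and Cyp27 features reach lower values than any Cyp2 feature and Cyp1 features reach higher ones.

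The family median lay close to that of the array. The median of the 34 feature means was -0.29, against -0.25 for all features, and 28 Cyp2 features (82.4%) and 77.2% of all features had a mean below 0. Centring moved these medians to -0.12 and -0.087, and turned 5 Cyp2 features to above 0, leaving 23 below (67.6%, against 1162 of the 1936 features). A dye term of -0.5 or below, a limit chosen with the data known, was seen in 7 of 34 Cyp2 features (20.6%) and in 43.2% of all features. On all 4 arrays 15 Cyp2 features (44.1%) were below 0, against 17.6% of all features. None of the 7 dye-shifted Cyp2 features was among them. The part of the unlike dye-shifted shares in this difference, and in the shares past the 2-fold rule, was not tested. The share above 0 throughout was 11.8%, with 11.9% of all features. Without the 7 dye-shifted features the family median was -0.29. The 4 lower features were not among those left out, so their number could not change here, and the count over all features was not made. No test was made of these differences, since features of a gene and of close copies share transcripts.

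**Figure D4:**
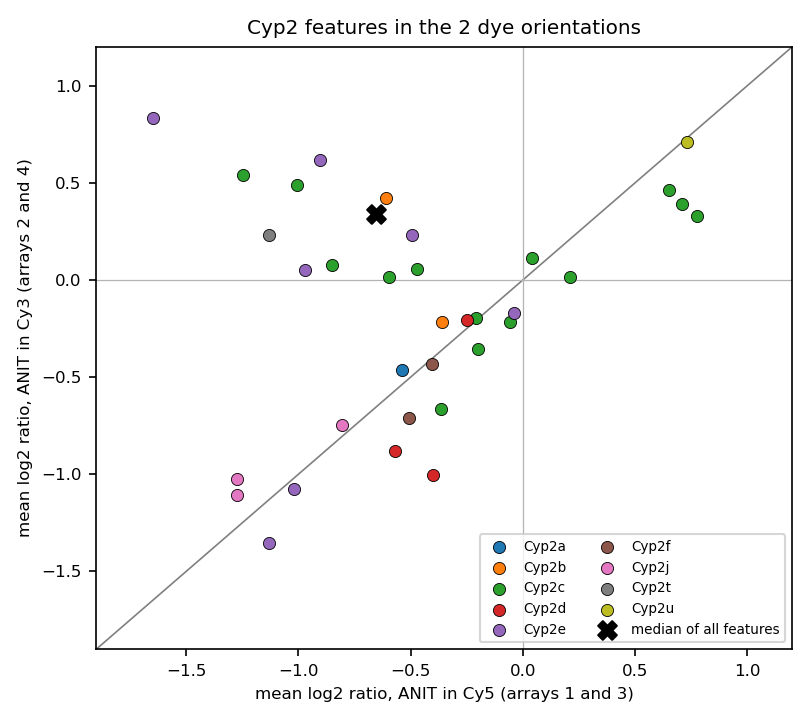
Mean log2 ratio with ANIT in Cy5 (horizontal axis) against that with ANIT in Cy3 (vertical axis) for the 34 Cyp2 features, coloured by subfamily, with a cross at the median of all features and a diagonal of equal values. The Cyp2j, Cyp2d, Cyp2f, Cyp2u1 and Cyp2c22 features, among others, have the same sign in both orientations, while the features in the upper left change sign with the dye, as the cross does.

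The other P450 families on the array reached further in both directions. Of their 27 features 7 were lower and 2 higher by the 2-fold rule (25.9% and 7.41%), with a median of -0.41. Per gene, 4 of 14 were lower, Cyp7a1 (-1.60 ± 0.78), Cyp27a1, Cyp8b1 and Cyp4f4, and Cyp1a2 was higher (1.46 ± 0.19). The 4 lower genes include 3 enzymes of bile acid synthesis, and Cyp4f4 is a fatty acid hydroxylase. The features of Cyp8b1 disagreed: feature 1391 stood at -1.89 ± 0.19, and feature 422, which did not pass, at -0.50 ± 1.12. The 11 features of the Cyp3 and Cyp4 families had a median of -0.53, and 2 of them, both Cyp4f4, were lower.

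Among all 958 genes the median was -0.24, with 3.55% lower and 0.626% higher per gene. No partner or regulator of the Cyp2 enzymes passed the rule by its gene mean. Of 4 electron transfer partners measured (median -0.22), Por, the P450 reductase, had the highest gene mean at 0.36 ± 0.15 and Cyb5r3, a cytochrome b5 reductase, the lowest at -0.97 ± 0.57. Features of these genes differed widely, from -0.35 to 0.93 over the 5 of Por and from -1.62 to -0.33 over the 2 of Cyb5r3. Of 7 nuclear receptors and other regulators measured (median -0.45), the lowest was Nr1h4, the bile acid receptor (-0.85 ± 0.46), and the highest Rxrg (-0.030 ± 0.21). CAR and PXR themselves were not analysed here. The 5 measured CAR and PXR targets outside the Cyp2 family ran from Gsta2 (-0.45 ± 0.11) to the canalicular pump Abcc2 (0.40 ± 0.042), with a median of 0.073. The 2 haem genes measured, Blvra and Hmox2, stood at -0.51 ± 0.31 and -0.34 ± 0.91 (median -0.42), and the synthesis enzymes were not analysed here. Of 8 conjugation and hydrolysis enzymes (median -0.43) none passed, with Gstt1 lowest (-0.65 ± 0.62) and Ephx2, the soluble epoxide hydrolase, highest (0.013 ± 0.17).

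In the arachidonic acid pathway that Cyp2j3 and Cyp2c23 belong to, 1 of 7 other genes (median -0.45) was lower, Cyp4f4 (-1.12 ± 0.12), and Alox15, a lipoxygenase, was the highest at 0.97 ± 0.16, just short of 2-fold. Of 4 growth hormone dependent genes (median -0.48), Igfals was lower (-1.18 ± 0.11), while Ghr, the growth hormone receptor, stood at -0.19 ± 0.77. Genes of the cells around the central vein, where Cyp2e1 is made, pointed both ways. Of 7 measured (median -0.33), Slc22a8, an organic anion transporter (-1.81 ± 0.16), Cyp7a1 and Cyp27a1 were lower and Cyp1a2 was higher. The 3 measured periportal genes (median -0.57) had none past the rule, from Pck1 (-0.58 ± 0.51) to Igfbp2 (-0.080 ± 0.61).

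No cell type marker passed the rule, and several followed the dye. The 6 measured hepatocyte markers (median -0.038) ran from Serpina1 (-0.28 ± 0.96) to Fgg, a fibrinogen chain (0.56 ± 0.12). The 2 measured cholangiocyte markers (median -0.34), Spp1 (-0.37 ± 1.15) and Ggt1 (-0.31 ± 1.11), were both dye-shifted, as were the only neutrophil or macrophage marker measured, S100a9 (-0.13 ± 0.89), and 3 of 5 stellate cell, fibroblast and endothelial markers (median -0.33), which ran from Col1a1 (-0.44 ± 0.72) to Vim (0.13 ± 0.073). The part of a change in cell composition in the Cyp2 ratios was not tested.

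**Figure D5:**
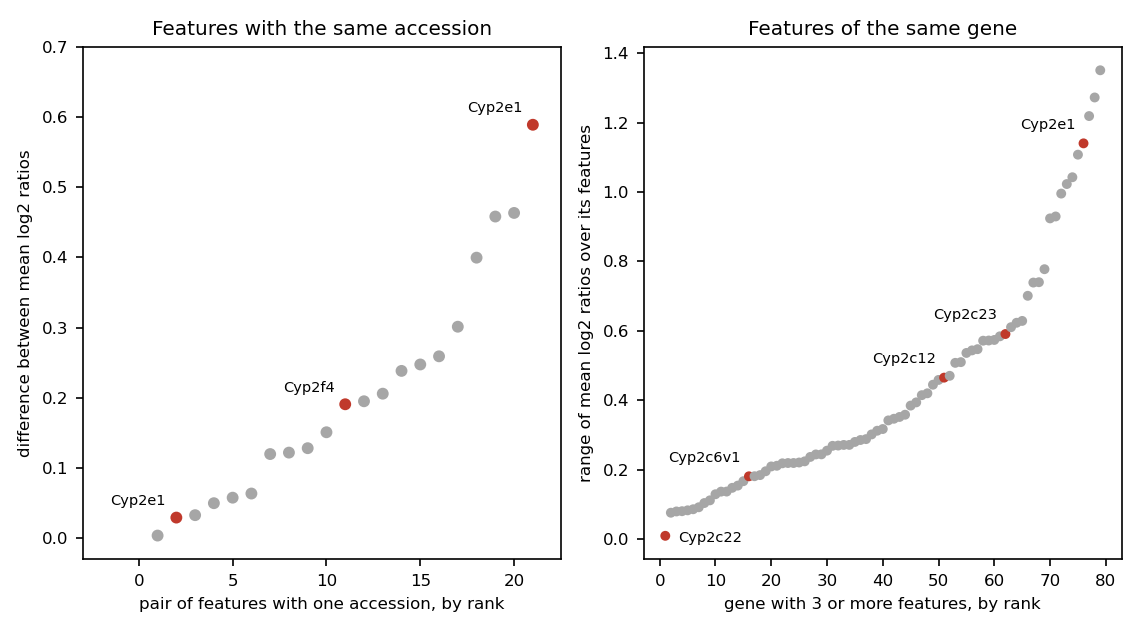
Left, difference between the mean log2 ratios of 2 features with the same accession, for 21 pairs in rank order. Right, range of feature means for the 79 genes with 3 or more features in rank order. Cyp2 entries are red: a Cyp2e1 pair tops the left panel at 0.59, and on the right Cyp2c22 has the smallest range (0.0089) while Cyp2e1 (1.14) lies near the top.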

How the data were processed

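Per the labels' protocols, poly(A) RNA from the mixed liver RNA of 3 rats a condition was labelled with Cy3 or Cy5 and co-hybridised to spotted cDNA arrays. The authors deposited a log ratio per feature and array, taken as log2. On the direction and base of the ratio, the scanner, the normalization and any background correction nothing is given in the sources used here. The values had not been centred by array and were used as deposited. With 1 pool per condition the 4 arrays are technical repeats; their number limits the precision, and no test of the condition was made.

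Names came from the platform annotation; all 34 Cyp2 features matched RefSeq symbols of GRCr8 by gene ID, and 0 features with several symbols held a Cyp2 gene. Calls used a mean log2 ratio of at least 1 in size with the same sign on 4 arrays. The 14 gene lists were described over gene means. Members and lists were chosen with earlier results of these data known. All members are named, and of each list mainly the genes past the rule and at either end. Alternatives were centring, each dye orientation alone, leaving out each array (orientations weighted equally), gene means, a 1.5-fold limit, natural logarithms and limma with a dye term (adjusted p limit 0.05), which compares pools, not conditions. Leaving out dye-shifted features was added after seeing the data. Rule and limma fit were tested on simulated data. Versions were R 4.3.3 with limma 3.58.1, and Python 3.11.15 with pandas 2.3.3, numpy 2.4.6 and matplotlib 3.10.9.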

Additional observations from a re-analysis of the deposited data

Results flagged for a closer look

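Of 34 Cyp2 features, 1 had an array far from the other 3: Cyp2c23 feature 1344 read -0.35 on array 2, while its other arrays lay between -0.076 and -0.055. About 1 in 20 such groups of 4 would be picked out by chance.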

How the results depend on the processing

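No Cyp2 feature was higher under centring, in either dye orientation, by gene means, with any array left out or without dye-shifted features, and 1 was higher at 1.5-fold and 1 with natural logarithms (Cyp2u1 in each). The 4 lower features became 2 with centred arrays (5.88%, against 2.48% of all features), 8 at 1.5-fold (23.5%, against 6.92%) and 7 with natural logarithms (20.6%, against 5.84%). With ANIT in Cy5 alone 8 were lower (23.5%, below the 34.5% of all features), and with ANIT in Cy3 alone 5 (14.7%, against 2.84%). By gene means 1 was lower (6.67%, against 3.55%). The number was 3 to 4 with each array left out (8.82% to 11.8%, against at most 3.15% of all features), where Cyp2e1 feature 1639 dropped out without array 3 or array 4. By limma with a dye term, 4 Cyp2 features were higher (11.8%, against 14.2% of all features) and 22 lower (64.7%, against 61.0%). These ratios were taken against 0, while the median of all features was -0.25. The Cyp2j median of -1.15 was -0.98 with centred arrays and -0.97 by gene means. The Cyp2d median of -0.70 was -0.40 with ANIT in Cy5 alone, and the Cyp2c median of -0.20 was 0.066 with ANIT in Cy3 alone. The family median stayed below 0 throughout, from -0.50 with ANIT in Cy5 alone to -0.078 with ANIT in Cy3 alone, and between -0.37 and -0.29 with each array left out. The Cyp2e median changed sign with ANIT in Cy3 alone (0.052). The causes were not tested. Of 69 counts and medians recomputed, 56 stayed within 1.5 times (counts) or 1 SD over arrays (medians). That SD includes the dye difference (0.60 for Cyp2e), so the Cyp2e change of sign was counted as staying. Counts of 0 that stayed at 0 are also among the 56, so this tally does not measure stability. Features past the rule could not change sign in either dye orientation or with an array left out, since the rule asks for 1 sign throughout. Under centring they could not either, since a mean of at least 1 in size exceeds the shift of 0.17. Without spot intensities, signal over background is unknown.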
